A study of Mus musculus with 18 samples.

Results

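The genes described here encode nuclear subunits of respiratory complexes II to V and the named assembly factors of complex IV. They were taken from the deposited count table as protein-coding rows whose symbol begins with Cox and a digit, with Uqcr or with Atp5, or is Sdha, Sdhb, Sdhc or Sdhd. The rule does not take every nuclear subunit, and Cyc1, cytochrome c1 of complex III, is not a member. It gave 54 of 25957 genes: 4 of complex II, 8 of complex III, 17 of complex IV, 8 assembly factors of complex IV and 17 of complex V. RNA was measured by BRB-seq, a bulk method in which each sample's cDNA is barcoded before pooling and reads come mainly from the 3′ ends of mRNAs, in the mouse myoblast line C2C12. The 18 libraries formed 6 groups of 3. The 30 s, 3 min and 30 min groups were washed with PBS and then kept in 200 µL of 0.25% trypsin at 37 °C for the stated time. Low trypsin cells had the same wash and trypsin, but the enzyme was removed immediately before 3 min at 37 °C. Cold-active protease cells were washed and shaken at 4 °C for 5 min with an enzyme active at that temperature. Control cells met no protease and were lysed in the plate and scraped, so that wash, incubation and harvest differed from the treated groups together with the enzyme. All groups grew with 20% serum. The labels number the libraries of a group as lots without saying if lots are separate cultures. The p-values therefore measure the spread between these libraries, and that spread may be technical.

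Electrons from succinate enter the inner mitochondrial membrane through complex II, pass from ubiquinol through complex III to cytochrome c, and reach oxygen at complex IV. Complexes III and IV pump protons as they work, and complex V, the ATP synthase, uses the returning protons to make ATP. Complex II is built from nuclear genes alone, while complexes III, IV and V also hold subunits encoded in mitochondrial DNA, and myoblasts raise this whole machinery as they differentiate into muscle fibres.

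Library totals lay between 1490869 and 2480690 counts, so that the detection floor of 3 counts was 1.21 to 2.01 CPM (counts scaled by library size), which covers counting error only. Of 25957 genes 10075 passed edgeR's filter on low counts and were tested, among them 47 of the 54 members. The members held 1.41% to 1.65% of each library's counts. Libraries of a group differed by more than sampling noise, with 1.41 to 2.6 chi-square units per degree of freedom. The 6 myoblast markers were all tested, and Myod1, the myogenic master regulator, lay between 45.3 and 67.7 CPM. Against control Myf5, another myogenic regulator, rose by 0.71 ± 0.12 log2 units at 30 s, 0.79 ± 0.12 at 30 min and 0.39 ± 0.12 in low trypsin (edgeR adjusted p = 1.4e-05, 4.08e-06 and 0.0481), and Vim, vimentin, fell by 0.12 ± 0.03 at 30 min (adjusted p = 0.0238), while the other 4 were not called; their part in the members' changes was not tested. Of 8 markers of other cell types 6 were in the table and none had enough counts to be tested; Ptprc, Pecam1, Cdh5 and Epcam stood at 0 in 13 or more of the 18 libraries. Cd68, a macrophage marker, was at 0 in none, with a mean of 4.56 CPM at 3 min and 2.34 in control. Krt8, an epithelial keratin, was at 0 in 6 libraries, with a mean of 2.85 CPM in low trypsin and 0.96 in control. The 6 markers summed to 2.68 to 5.21 CPM at 30 s, 4.71 to 7.65 at 3 min, 1.89 to 3.14 at 30 min, 3.74 to 5.96 in low trypsin, 3.27 to 4.12 with the cold-active protease and 3.85 to 4.71 in control, and their part in the members' changes was not tested. In bulk samples, fewer cells of a type and less RNA per cell cannot be told apart.

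The mRNAs of complexes III, IV and V were lower after trypsin in many members, while Sdhd of complex II was higher at 30 s and 3 min. After 30 s 22 of 47 tested members fell and 4 rose, where 3.7% of all tested genes were called lower and 3.24% higher, 6.94% in all (edgeR quasi-likelihood test, Benjamini-Hochberg adjusted p under 0.05 over all tested genes). After 3 min 25 fell and 1 rose, against a background of 2.95% lower and 1.01% higher, 3.96% in all. At 30 min 13 fell and 1 rose, with 2.61% of all genes lower and 2.07% higher, 4.68% in all; without 30 min library 2, 9 members were called. Low trypsin lowered 7 members and raised 4, with 1.9% of all genes lower and 3.3% higher, 5.19% in all. In place of these 11, 4 were called without low trypsin library 2, and 7 without control library 2 or control library 3. The cold-active protease lowered 2 members and raised none, with 0.467% of all genes lower and 0.199% higher, 0.665% in all; at an unadjusted p under 0.05, 10 members were lower and 2 higher, and DESeq2 called none, as did edgeR without control library 1 or 2 or cold-active protease library 1 or 2, with 1 called without library 3 of that group. The median log2 fold change of the 47 members was -0.21 at 30 s, -0.50 at 3 min, -0.11 at 30 min, -0.04 in low trypsin and -0.06 with the cold-active protease, while the median over all tested genes was within 0.01 of 0 each time. With a trend of mRNA length removed the member medians were -0.11, -0.10 and -0.07 at the 3 trypsin times. Any difference among the 6 groups was called for 36 of 47 members, with 11.5% of all tested genes called. The 11 not called were Sdha, Sdhb, Sdhc, Uqcrc1, Uqcrfs1, Cox6a2, Cox10, Cox18, Cox19, Atp5a1 and Atp5pb. These 5 comparisons use the same control libraries and are not independent of each other.

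**Figure D1:**
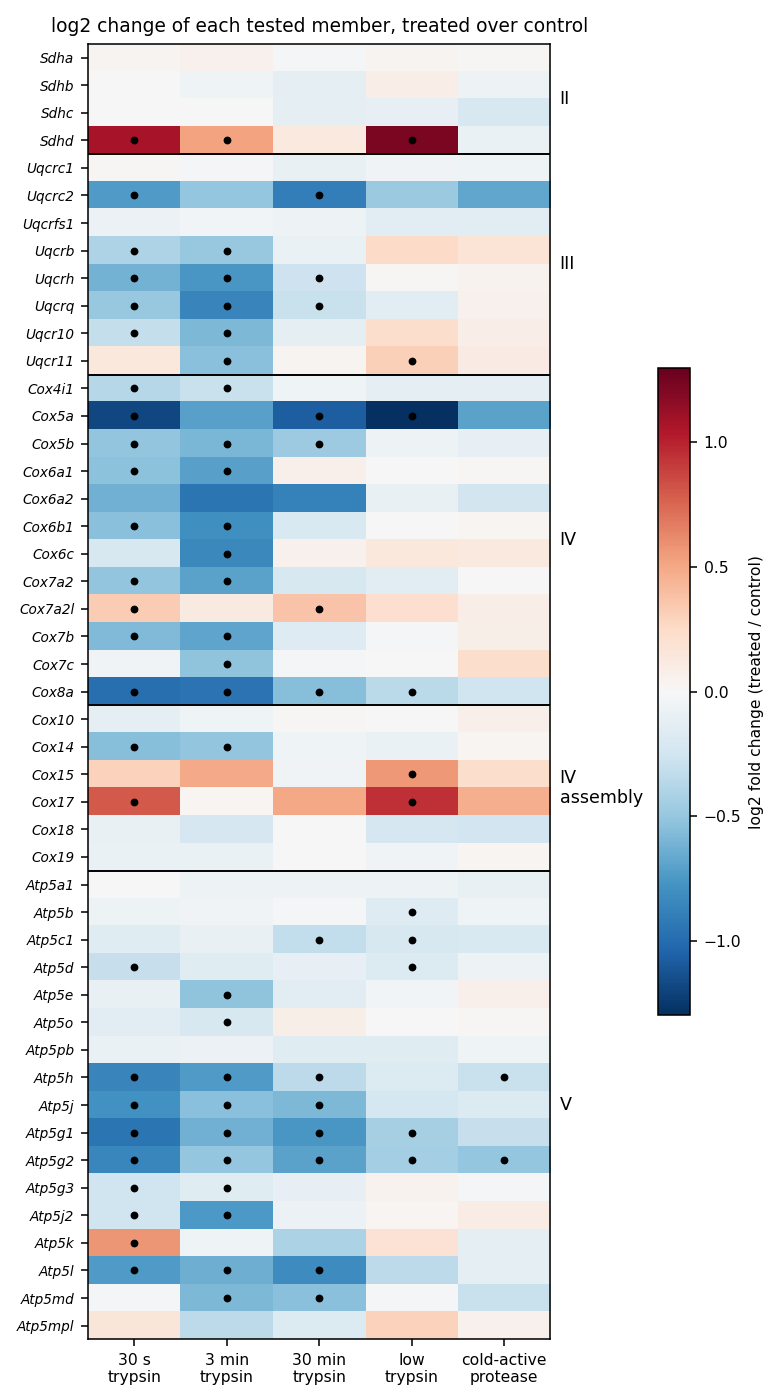
Fitted log2 fold change of each of the 47 tested members (rows, by complex) in each treatment over control (columns), with blue for lower and red for higher and a dot where the edgeR adjusted p was under 0.05. The 3 min column is blue through most of complexes III, IV and V, and Sdhd is red at 30 s, 3 min and in low trypsin.

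Summed by complex, complexes III and IV were lower at 30 s and 3 min, complex V was lower in every treated group, and complex II was not lower at these times. Complex IV subunits summed to 2899 ± 93.0 CPM at 30 s, 2640 ± 53.4 at 3 min, 3642 ± 193 at 30 min, 3726 ± 205 in low trypsin, 3821 ± 40.5 with the cold-active protease and 3864 ± 118 in control (SD, n = 3 each). Complex III summed to 1499 ± 11.6 CPM at 30 s, 1307 ± 74.5 at 3 min and 1609 ± 82.5 at 30 min, against 1790.1 ± 35.8 in control. The libraries of those 3 trypsin groups did not overlap with control for complex III, and at 30 s and 3 min they did not overlap for complex IV. Complex V stood at 8721 ± 65.6, 8799 ± 124 and 9073 ± 124 CPM at the 3 times, 9198 ± 263 in low trypsin and 9391 ± 60.2 with the cold-active protease, against 9829.9 ± 121 in control, and all 15 treated libraries were below all 3 control libraries. Complex II summed to 989 ± 11.6, 921 ± 23.8 and 847 ± 38.9 CPM at the 3 times, against 889 ± 44.9 in control. In low trypsin it summed to 1008 ± 29.9 CPM and with the cold-active protease to 835 ± 11.5. For complex II the 30 s and low trypsin libraries were all above control, and the cold-active protease libraries were all below it. Within complex II only Sdhd was called in any comparison, as given below.

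**Figure D2:**
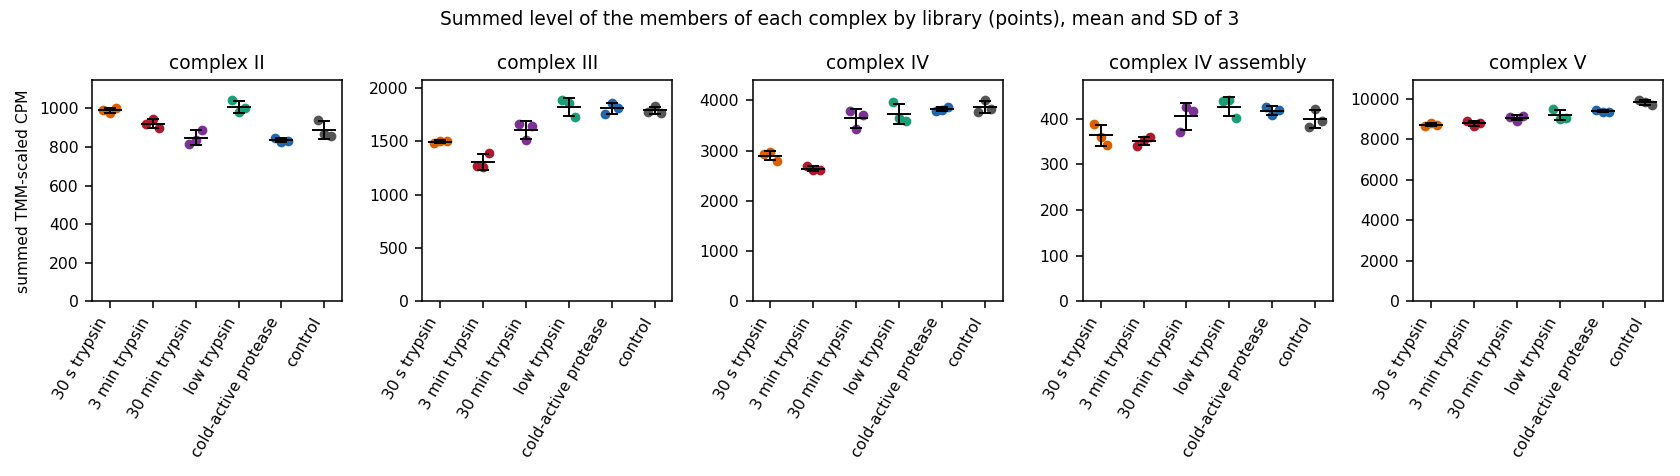
Summed TMM-scaled CPM of the members of each complex (y axis, from 0) by group (x axis), with a point per library and the mean and SD of 3 libraries. Complexes III and IV dip at 30 s and 3 min, with complex IV at 2640 CPM after 3 min and 3864 in control, complex V is lower in all 5 treated groups, and complex II does not dip at these times.

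Promoters are shown for a pair of members that rose at 30 s, Sdhd and Atp5k, and a pair that fell, Cox6a1 and Cox8a, so that their regulatory sequence can be set beside their response. Each is RefSeq's 300 bases from 250 before to 50 after the annotated start on GRCm38.p6, written 5′ to 3′ on the gene's strand, all 4 on the minus strand. Positions are chr9:50603800-50604099 for Sdhd, chr5:108434350-108434649 for Atp5k, chr5:115348909-115349208 for Cox6a1 and chr19:7217567-7217866 for Cox8a. Capitals mark matches, on either strand, to the letters CCGGAAG of the ETS family, to which GABP, a factor known for binding promoters of respiratory genes, belongs.
Sdhd: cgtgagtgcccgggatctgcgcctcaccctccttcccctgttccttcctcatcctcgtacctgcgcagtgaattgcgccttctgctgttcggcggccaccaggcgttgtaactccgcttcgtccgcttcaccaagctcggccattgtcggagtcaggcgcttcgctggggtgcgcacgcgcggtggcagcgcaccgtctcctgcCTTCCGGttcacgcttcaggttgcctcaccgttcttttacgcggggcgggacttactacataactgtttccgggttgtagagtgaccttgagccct
Atp5k: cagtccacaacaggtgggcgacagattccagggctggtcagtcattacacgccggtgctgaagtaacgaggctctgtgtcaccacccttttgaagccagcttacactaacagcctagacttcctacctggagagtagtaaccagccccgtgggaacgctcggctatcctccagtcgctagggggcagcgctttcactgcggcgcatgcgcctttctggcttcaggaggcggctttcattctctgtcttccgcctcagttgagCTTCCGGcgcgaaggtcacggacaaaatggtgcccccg
Cox6a1: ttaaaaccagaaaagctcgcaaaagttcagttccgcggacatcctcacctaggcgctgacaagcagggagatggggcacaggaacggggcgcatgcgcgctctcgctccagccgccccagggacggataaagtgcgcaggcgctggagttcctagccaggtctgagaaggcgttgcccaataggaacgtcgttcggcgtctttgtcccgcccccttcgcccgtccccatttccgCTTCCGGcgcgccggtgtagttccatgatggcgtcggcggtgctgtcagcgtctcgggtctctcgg
Cox8a: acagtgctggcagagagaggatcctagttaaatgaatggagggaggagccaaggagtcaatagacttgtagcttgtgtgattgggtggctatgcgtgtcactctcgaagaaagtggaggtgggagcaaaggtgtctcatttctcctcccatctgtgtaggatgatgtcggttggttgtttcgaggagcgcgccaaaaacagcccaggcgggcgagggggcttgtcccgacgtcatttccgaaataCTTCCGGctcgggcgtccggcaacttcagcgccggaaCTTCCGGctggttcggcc

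In these windows Cox8a held 2 ETS matches and Sdhd, Atp5k and Cox6a1 held 1 each, so that members that rose and members that fell both held one. Of the 42 members with a RefSeq promoter entry, 17 (40.5%) held an ETS match in at least 1 entry, against 22.4% of 7918 tested genes with an entry and 9.93% of all 27025 genes with one. A YY1 match (AANATGGC, either strand) was held by 6 members (14.3%), against 11% of tested genes and 6.96% of all genes with an entry. An Sp1 match (GGGCGG, either strand) was held by 18 members (42.9%), against 72.5% of tested genes and 38.2% of all genes with an entry. Among members with an entry, 11 of 21 that fell at 3 min held an ETS match, against 5 of the other 15 tested. A match to NRF1, a factor known for binding promoters of respiratory genes, was held by 10 members (23.8%), against 12.7% of tested genes and 5.19% of all genes with an entry, and by 5 of the 21 that fell at 3 min and 5 of the other 15 tested; it was searched on both strands and is given by name alone. No test was made of these shares, and a match describes letters, not a bound site. None of 9 tested regulators of mitochondrial genes (Ppargc1b, Pprc1, Nrf1, Gabpa, Gabpb1, Esrra, Tfam, Yy1 and Polrmt) passed edgeR's test or DESeq2's in any treatment against control; at an unadjusted edgeR p under 0.05 at most 2 did, at 30 min. Their median change lay between -0.04 and 0.01.

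In complex II Sdhd was the subunit that changed. Sdha carries the flavin that oxidises succinate, Sdhb carries the iron-sulphur clusters, and Sdhc and Sdhd anchor both in the membrane and bind ubiquinone. Sdhd (chr9:50596357-50603812, GRCm38, minus strand) stood at 181, 174 and 201 CPM at 30 s, 130.2, 133 and 115 at 3 min, 69.1, 95.4 and 122 at 30 min, 213, 191 and 210.2 in low trypsin, 81.2, 74.5 and 93.6 with the cold-active protease, and 98.2, 85.5 and 81.6 in control. All libraries of the 30 s, 3 min and low trypsin groups were above all control libraries, the 30 min libraries were spread on both sides of them, and the cold-active protease libraries overlapped them. Sdhd rose by 1.08 ± 0.11 log2 units at 30 s (SE, edgeR adjusted p = 2.8e-11), by 0.52 ± 0.12 at 3 min (adjusted p = 0.00182) and by 1.22 ± 0.11 in low trypsin (adjusted p = 1e-12). Its changes were 0.12 ± 0.12 at 30 min (adjusted p = 0.693) and -0.09 ± 0.12 with the cold-active protease (adjusted p = 0.889). Each of the 3 rises was called with every library of the compared groups left out in turn.

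Between trypsin times Sdhd was lower at 3 min than at 30 s (log2 -0.55 ± 0.10, edgeR adjusted p = 0.000367). It was lower at 30 min than at 3 min (-0.40 ± 0.12, edgeR adjusted p = 0.0338), a call lost in 4 of 6 fits that left out a library, with an adjusted p of 0.442 without 30 min library 1. Sdha ranged from 214 to 259 CPM over all 18 libraries, Sdhb from 277 to 366 and Sdhc from 205 to 278. None of these 3 was called in any of the 10 comparisons. The 4 assembly factors of complex II outside the member rule (Sdhaf1 to Sdhaf4) were not called by edgeR or DESeq2 in any treatment against control, and at an unadjusted edgeR p under 0.05 at most 3 were, at 30 min.

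**Figure D3:**
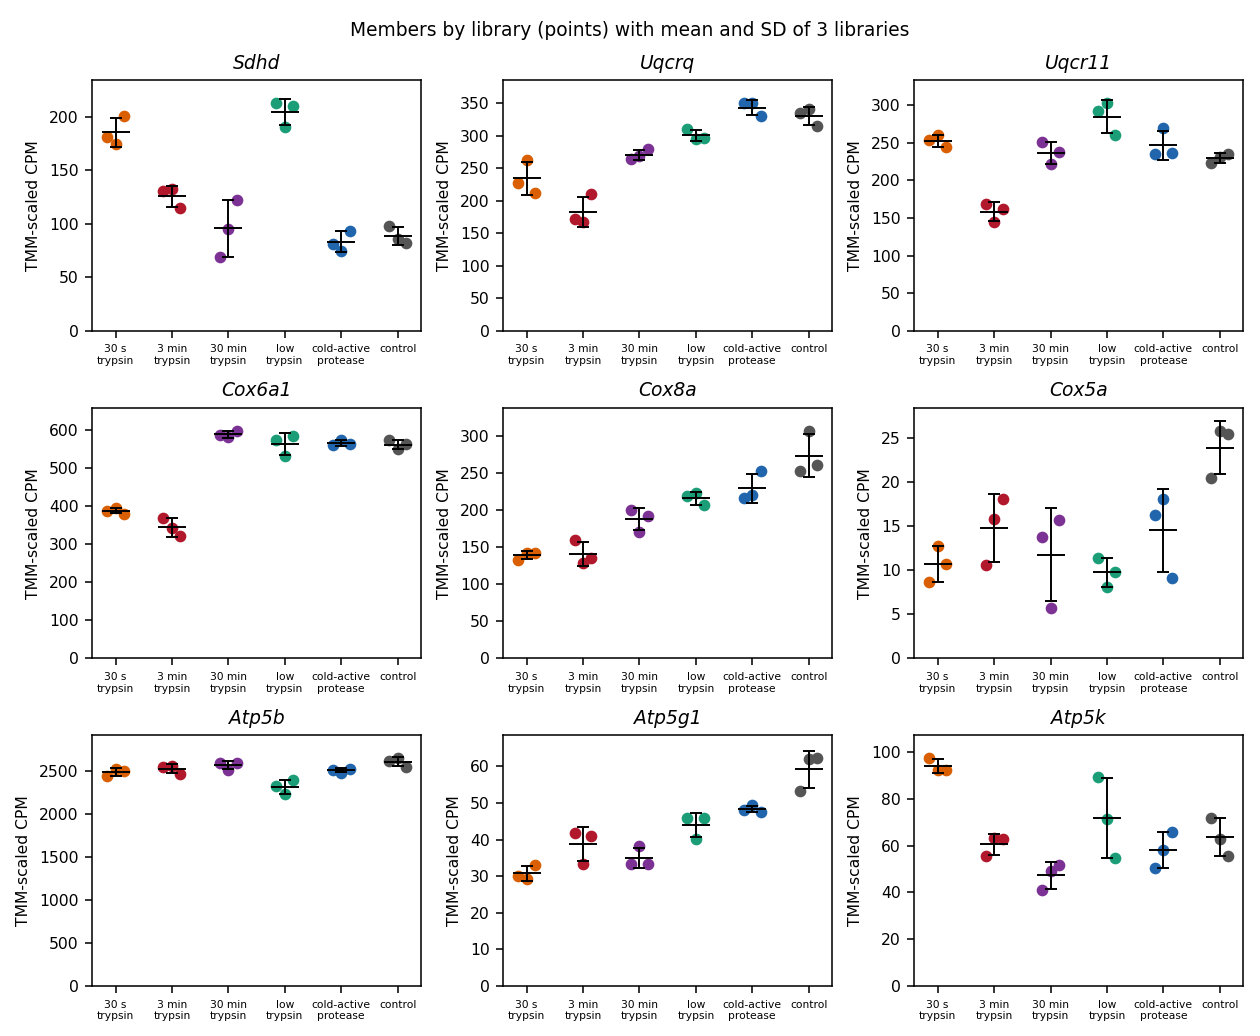
TMM-scaled CPM (y axis, from 0) of 9 members by group (x axis), with a point per library and the mean and SD of 3 libraries. Sdhd is above control at 30 s, 3 min and in low trypsin, Cox6a1 dips at 30 s and 3 min and stands at 588 CPM at 30 min against 561 in control, and Cox5a, with few counts, is widely spread.

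In complex III the small accessory subunits fell while the core subunit Uqcrc1 and the Rieske protein Uqcrfs1, which hands electrons towards cytochrome c, were not called in any comparison. All 5 small subunits, Uqcrb, Uqcrh, Uqcrq, Uqcr10 and Uqcr11, fell at 3 min, with a median of -0.58 log2 units. With the length trend removed Uqcrb, Uqcr10 and Uqcr11 were no longer called (-0.14, -0.15 and -0.11, edgeR adjusted p = 0.729, 0.601 and 0.645). Uqcrq (chr11:53427922-53430831, minus strand), a small membrane subunit beside cytochrome b, stood at 228, 263 and 212 CPM at 30 s, 171, 167 and 209.8 at 3 min and 265, 268 and 279 at 30 min, against 335, 340.4 and 315 in control. No library of these 3 groups reached the lowest control library. Uqcrq fell by 0.49 ± 0.07 at 30 s, 0.86 ± 0.08 at 3 min and 0.29 ± 0.07 at 30 min (edgeR adjusted p = 5.4e-07, 4.53e-13 and 0.00894), the last of these with an adjusted p of 0.0666 without control library 2. In low trypsin it stood at 309.8, 295 and 297 CPM and with the cold-active protease at 349.7, 350.0 and 329, with no call in either.

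Uqcrh, the hinge protein that helps cytochrome c bind, fell by 0.62 ± 0.07 at 30 s, 0.76 ± 0.07 at 3 min and 0.27 ± 0.07 at 30 min, the last with an edgeR adjusted p of 0.133 without 30 min library 2. Uqcrb fell by 0.41 ± 0.11 at 30 s and 0.50 ± 0.12 at 3 min, and Uqcr10 by 0.31 ± 0.09 and 0.58 ± 0.10. The Uqcrb calls at both times and the Uqcr10 call at 30 s were each lost on leaving out at least 2 of the libraries in turn (highest edgeR adjusted p 0.118, 0.072 and 0.217). Uqcr11 stood apart in time. It had 254, 259.8 and 244 CPM at 30 s, 168, 145 and 162 at 3 min, 251, 222 and 237 at 30 min, 292, 303 and 259.8 in low trypsin and 223, 232 and 235 in control. Its libraries were below all others at 3 min and above control in low trypsin. It fell by 0.54 ± 0.08 at 3 min (edgeR adjusted p = 9.55e-07) and rose by 0.31 ± 0.07 in low trypsin (adjusted p = 0.00356, and 0.052 without low trypsin library 2), where 0.14 at 30 s was not called.

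Uqcrc2, the other core subunit, had only 24 to 64 counts a library. It stood at 10.4, 22.5 and 22.5 CPM at 30 s, 21.2, 23.0 and 19.4 at 3 min and 18.9, 13.1 and 17 at 30 min, against 33.4, 27.8 and 30.2 in control. In low trypsin it stood at 18.9, 23.8 and 22.4 CPM and with the cold-active protease at 17.7, 16.5 and 23.5, with no call in either. Every treated library of Uqcrc2 was below all 3 control libraries. It fell by 0.74 ± 0.21 at 30 s (edgeR adjusted p = 0.0179, and 0.328 without 30 s library 1) and by 0.90 ± 0.22 at 30 min (adjusted p = 0.00796, and 0.0908 without 30 min library 2). The end of Uqcrc2 overlaps the antisense gene Pdzd9, and the strand used in counting is not given in the sources used here. Of 7 tested genes outside the member rule, which are Cyc1, the catalytic cytochrome c1 subunit, and genes for cytochrome c and complex III assembly, Uqcc2, an assembly factor, fell by 0.50 ± 0.07 at 30 s and 0.64 ± 0.07 at 3 min, and Cyc1 fell by 0.18 ± 0.05 in low trypsin (edgeR adjusted p = 0.0257).

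Of 12 tested complex IV subunits 8 fell at 30 s and 9 at 3 min, and 3 were lower at 30 min. Cox6a1 (chr5:115345642-115348981, minus strand), the broadly expressed form of a regulatory subunit, had 388, 393 and 380.2 CPM at 30 s, 369, 342 and 320.3 at 3 min, 586, 579.7 and 598 at 30 min, and 573, 549 and 562 in control. The 30 s and 3 min libraries were far below control and the 30 min libraries just above it. Cox6a1 fell by 0.54 ± 0.06 at 30 s and by 0.70 ± 0.06 at 3 min (edgeR adjusted p = 1.65e-10 and 5.64e-14). The change was 0.07 ± 0.06 at 30 min (adjusted p = 0.621) and 0.01 in both low trypsin and cold-active protease cells. Between times it was 0.77 ± 0.06 higher at 30 min than at 3 min (edgeR adjusted p = 4.36e-15).

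Cox8a (chr19:7215153-7217616, minus strand), a small subunit of the complex's membrane part, had 133, 142 and 142 CPM at 30 s, 159, 129 and 135 at 3 min, 199, 171 and 192 at 30 min, 218, 223 and 206 in low trypsin, 217, 219.9 and 252 with the cold-active protease, and 252, 307 and 261 in control. Every treated library was below the lowest control library, at 252.22 CPM. The highest cold-active protease library lay just under it, at 251.96 CPM, and the change in that group was not called. Cox8a fell by 0.98 ± 0.08 at 30 s, 0.96 ± 0.08 at 3 min, 0.55 ± 0.08 at 30 min and 0.35 ± 0.08 in low trypsin (edgeR adjusted p = 8.93e-14, 4.85e-13, 1.74e-06 and 0.00236). The low trypsin call had an adjusted p of 0.0912 without control library 2. At 30 min Cox8a was higher than at 3 min by 0.41 ± 0.09 (edgeR adjusted p = 0.00187), and by 0.12 with the length trend removed (adjusted p = 0.651).

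Cox5a (chr9:57521274-57532426, plus strand), a matrix-side subunit, had only 11 to 54 counts a library. It stood at 8.69, 12.8 and 10.7 CPM at 30 s, 10.6, 15.8 and 18.1 at 3 min, 13.8, 5.77 and 15.8 at 30 min, 11.5, 8.12 and 9.81 in low trypsin, 16.3, 18.1 and 9.18 with the cold-active protease, and 20.5, 25.9 and 25.5 in control. No treated library reached the lowest control library. Cox5a fell by 1.18 ± 0.26 at 30 s, 1.07 ± 0.27 at 30 min and 1.29 ± 0.27 in low trypsin (edgeR adjusted p = 0.00119, 0.00883 and 0.000727). Its changes of -0.71 ± 0.26 at 3 min and -0.69 ± 0.24 with the cold-active protease were not called (adjusted p = 0.139 and 0.274). The 30 min call had an adjusted p of 0.176 without 30 min library 2, the lowest of its group.

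Cox6c, a small membrane subunit, had 301, 288 and 280.0 CPM at 30 s, 184, 184 and 196 at 3 min and 376, 311 and 357 at 30 min, against 307, 345 and 349.8 in control. The 3 min libraries lay far below the rest and the 30 s libraries just under control, with a fall at 3 min of 0.84 ± 0.07 (edgeR adjusted p = 6.45e-13) and a change of -0.21 at 30 s that was not called. Cox6b1, on the outer face, fell by 0.54 ± 0.08 at 30 s and 0.80 ± 0.09 at 3 min. Cox7c fell by 0.52 ± 0.08 at 3 min, Cox7b by 0.58 ± 0.07 and 0.69 ± 0.07 at 30 s and 3 min, and Cox5b by 0.52 ± 0.10, 0.59 ± 0.10 and 0.48 ± 0.10 at all 3 times. The last had an edgeR adjusted p of 0.0559 without 30 min library 2.

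Several complex IV subunits come as paralogues, and where both were counted they could be compared. Cox4i1, the common form of the largest nuclear subunit, had 854, 924 and 856 CPM at 30 s and 958, 896 and 923 at 3 min, against 1114, 1169 and 1118 in control. Both groups were wholly below control, by 0.37 ± 0.05 and 0.29 ± 0.05 (edgeR adjusted p = 2.85e-07 and 5.68e-05). Cox4i2, the form known from lung, had at most 1 count in a library. Cox6a2, the heart and muscle form of Cox6a1, had 3 to 18 counts and was not called in any comparison, with changes of -0.63, -0.95 and -0.88 at the 3 times. Cox6b2, Cox7b2 and Cox8b had at most 2 counts and Cox7a1, the muscle form, at most 9, so they were not tested. Cox7a2, the common form, fell by 0.51 ± 0.08 at 30 s and 0.69 ± 0.08 at 3 min. Its relative Cox7a2l, known for joining complexes III and IV into supercomplexes, had 172, 202 and 152 CPM at 30 s, 146, 155 and 157 at 3 min and 181, 192 and 171 at 30 min, against 144, 134 and 143 in control. In low trypsin it had 173, 157 and 160 CPM and with the cold-active protease 148, 149 and 149, with no call in either. Every treated library of Cox7a2l was above all control libraries. It rose by 0.33 ± 0.08 at 30 s (edgeR adjusted p = 0.00682, and 0.232 without 30 s library 2) and by 0.38 ± 0.09 at 30 min (adjusted p = 0.00307).

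Of 6 tested assembly factors of complex IV, 1 fell and 1 rose at 30 s, 1 fell at 3 min and 2 rose in low trypsin. Cox17, the copper chaperone that feeds copper to the complex, had 56.5, 57.4 and 46.6 CPM at 30 s, 31.8, 37.2 and 24.1 at 3 min, 40.2, 43.5 and 47.3 at 30 min, 66.2, 62.8 and 49.5 in low trypsin, 43.0, 42.0 and 43.6 with the cold-active protease, and 31.4, 34.2 and 26.9 in control. At 3 min its libraries overlapped control, while in the other 4 treated groups they were all above it. Cox17 rose by 0.80 ± 0.15 at 30 s and 0.95 ± 0.15 in low trypsin (edgeR adjusted p = 0.000115 and 8.01e-06). Its end overlaps the same-strand gene Gm21987, so its counts are uncertain. Cox15, needed to make haem A, rose by 0.56 ± 0.16 in low trypsin (edgeR adjusted p = 0.0191, and 0.18 without control library 3). Cox14, an early assembly factor, fell by 0.55 ± 0.08 at 30 s and 0.51 ± 0.08 at 3 min. Cox10, Cox18 and Cox19 were not called in any comparison, and Cox11 and Cox16 had at most 3 counts. Of 14 tested complex IV assembly genes outside the member rule, Higd2a and Cmc2 fell at 30 s and Higd1a and Cmc2 at 3 min.

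In complex V the 3 genes for the membrane ring, Atp5g1, Atp5g2 and Atp5g3, fell at 30 s and 3 min, and of the 5 subunits of the head 1 fell at each time. Atp5b, which holds the catalytic sites, Atp5a1, which alternates with it, and Atp5pb, a stalk subunit, were not called at any trypsin time. Atp5b had 2446, 2529 and 2504 CPM at 30 s, 2549.5, 2569 and 2472 at 3 min and 2598, 2521 and 2598 at 30 min, against 2626, 2654 and 2553 in control. In low trypsin it had 2329.6, 2239.6 and 2398 CPM, all below control, a fall of 0.17 ± 0.04 (edgeR adjusted p = 0.00525, and 0.0646 without low trypsin library 2). Of the other head subunits Atp5d fell by 0.30 ± 0.05 at 30 s, Atp5e by 0.52 ± 0.08 at 3 min and Atp5c1 by 0.32 ± 0.07 at 30 min. Low trypsin lowered Atp5d by 0.18 ± 0.05 and Atp5c1 by 0.21 ± 0.06, and both calls were lost on leaving out libraries (highest edgeR adjusted p 0.129 and 0.206).

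Atp5g1 (chr11:96068852-96075670, minus strand), which encodes the same mature ring protein as its 2 relatives, had 30.0, 29.2 and 33.2 CPM at 30 s, 41.8, 33.3 and 40.9 at 3 min, 33.3, 38.3 and 33.4 at 30 min, 45.8, 40.1 and 45.8 in low trypsin, 48.1, 49.4 and 47.6 with the cold-active protease, and 53.3, 62.0 and 62.2 in control. All 15 treated libraries were below all control libraries. It fell by 0.95 ± 0.14 at 30 s, 0.63 ± 0.14 at 3 min and 0.76 ± 0.14 at 30 min (edgeR adjusted p = 5.79e-07, 0.00155 and 0.00016). In low trypsin it fell by 0.44 ± 0.13 (adjusted p = 0.033, lost in 5 of 6 fits that left out a library). Atp5g2 fell by 0.85 ± 0.13, 0.50 ± 0.13 and 0.70 ± 0.13 at the 3 times. Atp5g3 fell by 0.26 ± 0.04 at 30 s and 0.16 ± 0.04 at 3 min, with the 3 min call lost in 4 of 6 fits without a library. With the length trend removed the 3 min calls of Atp5g1, Atp5g2 and Atp5g3 ended (-0.31, -0.07 and 0.09, edgeR adjusted p = 0.336, 0.911 and 0.392). The 30 s call of Atp5g3 ended too (-0.09, edgeR adjusted p = 0.317). The counts of Atp5g1 and Atp5g2 are uncertain because of near-identical copies, as given below.

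Among the stalk subunits Atp5h had 142, 144 and 135 CPM at 30 s, 164, 141 and 156 at 3 min and 212, 192 and 202 at 30 min, against 262, 275 and 231 in control. All were below control, by 0.86 ± 0.08, 0.74 ± 0.08 and 0.34 ± 0.08 (edgeR adjusted p = 5.89e-13, 1.64e-10 and 0.00198). Atp5j fell by 0.79 ± 0.08, 0.54 ± 0.08 and 0.58 ± 0.08 at the 3 times, and Atp5o by 0.21 ± 0.06 at 3 min, a call lost in 5 of 6 fits without a library. Of the small membrane subunits Atp5l, which helps join synthase dimers, fell by 0.74 ± 0.15, 0.64 ± 0.15 and 0.82 ± 0.16 at the 3 times. Atp5j2 fell by 0.26 ± 0.08 at 30 s and 0.74 ± 0.08 at 3 min, and Atp5md by 0.59 ± 0.17 at 3 min and 0.55 ± 0.17 at 30 min, where the last was lost in all 6 fits without a library. The 3 min calls of Atp5md, Atp5l and Atp5g2 were lost in 3, 2 and 2 such fits (highest edgeR adjusted p 0.362, 0.0708 and 0.134), and the 30 s call of Atp5j2 in 4 (0.163).

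Atp5k, another dimer-forming subunit, went the other way at 30 s. It had 97.3, 92.2 and 92.1 CPM at 30 s, 55.4, 63.4 and 63.0 at 3 min and 40.9, 49.3 and 51.7 at 30 min, against 71.9, 63.0 and 55.6 in control. Its 30 s libraries were all above control and its 30 min libraries all below. It rose by 0.58 ± 0.13 at 30 s (edgeR adjusted p = 0.0011), and its changes of -0.06 at 3 min and -0.41 at 30 min were not called. The inhibitor of the synthase, Atpif1, which is no member, fell by 0.57 ± 0.09 at 30 s and 0.66 ± 0.10 at 3 min.

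The cold-active protease lowered 2 complex V members. Atp5g2 had 59.8, 53.5 and 72.3 CPM with the protease, against 84.7, 95.7 and 79.7 in control, a fall of 0.50 ± 0.12 (edgeR adjusted p = 0.0315). Atp5h had 210.1, 203 and 217 CPM with the protease, against 262, 275 and 231 in control, a fall of 0.28 ± 0.07 (edgeR adjusted p = 0.0439). The libraries did not overlap in either, but the calls were lost in 4 and 5 of 6 fits that left out a library, and DESeq2 gave adjusted p of 0.0522 and 0.0504.

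Set against each other, the trypsin times differed member by member. At 3 min 10 members were lower than at 30 s, where 1.46% of all tested genes were (1.94% in either direction), and all 10 calls were in this direction: Sdhd, Uqcrq, Uqcr11, Cox6c, Cox7c, Cox17, Atp5e, Atp5j2, Atp5k and Atp5mpl. Uqcr11 was lower at 3 min (-0.68 ± 0.08, edgeR adjusted p = 9.27e-09), and so was Cox17 (-0.77 ± 0.16, adjusted p = 0.00102). With the length trend removed Uqcrq, Atp5e, Atp5k and Atp5mpl were no longer called (edgeR adjusted p = 0.399, 0.142, 0.0751 and 0.208), while 3 members gained a call. The Uqcrq and Atp5mpl calls were each lost in 2 of 6 fits that left out a library. At 30 min 18 members were higher than at 3 min and 2 lower, Sdhd and Atp5c1, against 2.83% and 1.2% of all genes, 4.03% in all. The 18 were 5 of complex III, 8 of complex IV, Cox14 and 4 of complex V, with the largest differences in Cox6c (0.89 ± 0.08, edgeR adjusted p = 1.76e-13) and Cox6a1. Against 30 s, 13 members were higher at 30 min and 2 lower, Sdhd (-0.95 ± 0.11) and Atp5k (-0.99 ± 0.14), with 2.82% and 2.11% of all genes called, 4.93% in all. With the length trend removed 8 of the higher calls ended and 5 other members gained a call. The 8 were Uqcrh, Cox6b1, Cox6c, Cox7a2, Cox8a, Atp5d, Atp5g3 and Atp5o. Fits that left out a library lost the call of Atp5o in 5 of 6, Atp5g3 in 4, Cox6c and Cox7a2 in 3 each, Cox6b1 in 2 and Atp5d in 1.

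Many members were higher after milder detachment than after 3 min in trypsin. Low trypsin cells had 24 members called, all higher than at 3 min (9 higher and 1 lower, Atp5g2, with the length trend removed), with 3.78% of all genes called higher and 4.36% in either direction. Cold-active protease cells had 21 higher and 1 lower, Sdhd, with 2.84% and 0.864% of all genes called, 3.7% in all. Cox6a1 had 574, 531 and 584 CPM in low trypsin, 559, 574 and 563 with the cold-active protease, and 369, 342 and 320.3 at 3 min, so that neither milder group overlapped with 3 min. It was higher by 0.71 ± 0.06 in low trypsin and by 0.72 ± 0.06 with the cold-active protease (edgeR adjusted p = 4.99e-14 and 2.38e-14). Sdhd was higher than at 3 min in low trypsin by 0.70 ± 0.10 and lower with the cold-active protease (-0.62 ± 0.12, edgeR adjusted p = 1.08e-06 and 0.000146). Both comparisons use the same 3 min libraries.

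**Figure D4:**
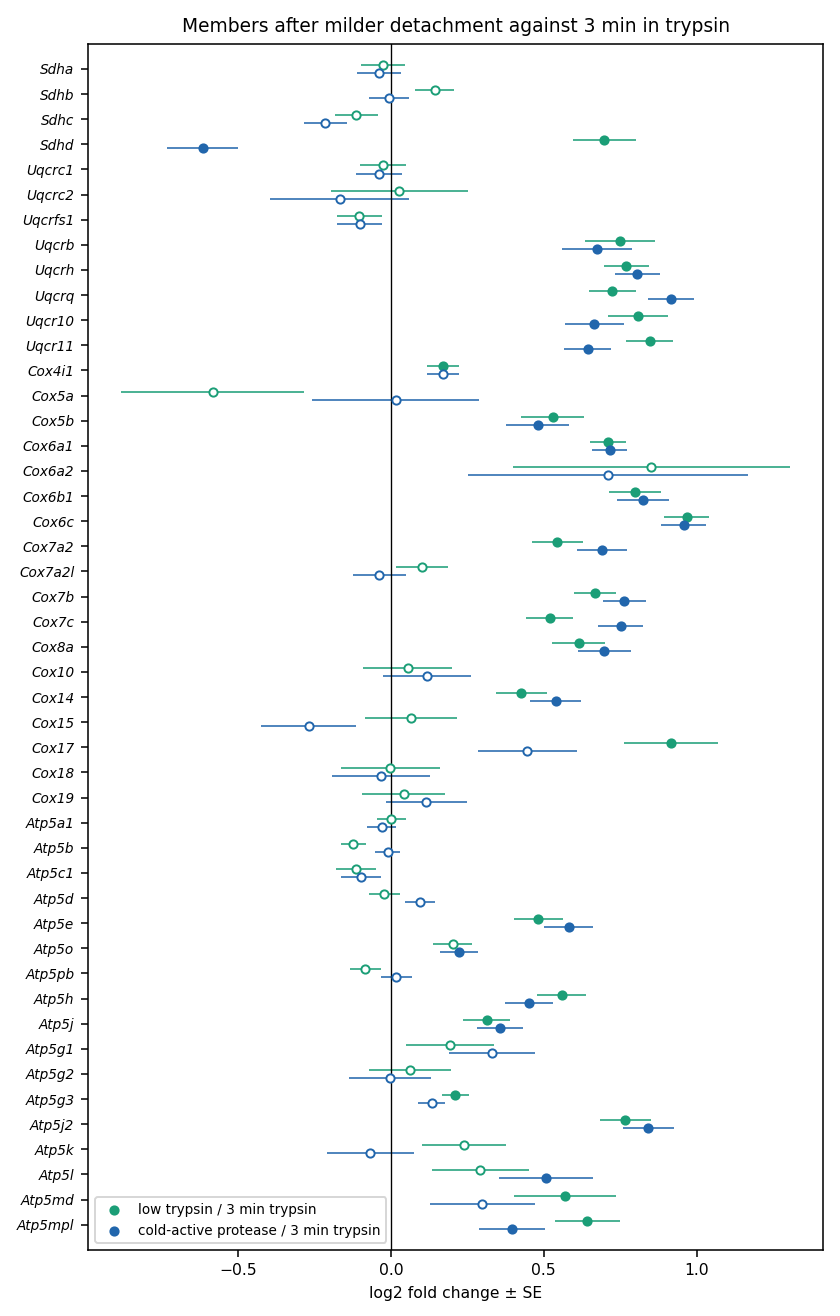
Fitted log2 fold change ± SE (x axis) of each of the 47 tested members (y axis, by complex) in low trypsin and with the cold-active protease, each over 3 min in trypsin, with filled points where the edgeR adjusted p was under 0.05. Most small subunits of complexes III and IV lie between about 0.5 and 1 in both, while Sdhd is higher in low trypsin (0.70) and lower with the cold-active protease (-0.62).

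Most members that fell after trypsin have short mRNAs. By GENCODE M21, 25 tested members have a principal mRNA of 800 nt or less and 22 a longer one. At 3 min 20 of the 25 short members fell (80%) and 5 of the 22 longer ones (22.7%), with medians of -0.59 and -0.07. At 30 s the shares lower were 64.0% and 27.3% with medians of -0.49 and -0.09, and at 30 min 36.0% and 18.2% with medians of -0.20 and -0.07. Short mRNAs of other coding genes moved too: of 334, 41.9% were lower at 30 s, 41.3% at 3 min and 14.7% at 30 min, with medians of -0.33, -0.38 and -0.09. Of 9337 longer ones outside the members 2.11%, 1.26% and 2.03% were lower at these times, with medians of 0.01, 0.02 and 0.01. Longer members were called lower more often than these genes, but no test was made of this difference. The genes were split at 800 nt alone and not matched in length. The 5 longer members that fell at 3 min were Atp5j, Atp5o, Cox5b, Atp5j2 and Cox7b, with mRNAs of 809 to 1001 nt. No member with a longer mRNA than these was called lower at 3 min. Uqcrc2, at 1896 nt and with few counts, was called lower at 30 s and 30 min. Across the 47 members, which share libraries and counting, Pearson's r of log2 length with the fold change was 0.24 at 30 s, 0.64 at 3 min and 0.22 at 30 min, given as a description. With a smooth trend of length removed from every library, 13 members were called at 3 min in place of 26, and the median was -0.10 in place of -0.50. The 3 min calls that ended were those of Uqcrb, Uqcr10, Uqcr11, Cox4i1, Cox7c, Cox14, Atp5e, Atp5g1, Atp5g2, Atp5g3, Atp5l, Atp5md and Atp5o. Against control the calls of Uqcrb, Uqcr10, Atp5g3 and Atp5j2 ended at 30 s, those of Uqcrh and Atp5md at 30 min, and those of Uqcr11, Atp5c1 and Atp5d in low trypsin. Under the same setting Sdhd rose by 1.09 at 30 s and 0.57 at 3 min, and Cox8a fell by 0.76 and 0.61. The trend was fitted to genes outside the members, and the part of length in these results was not tested.

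**Figure D5:**
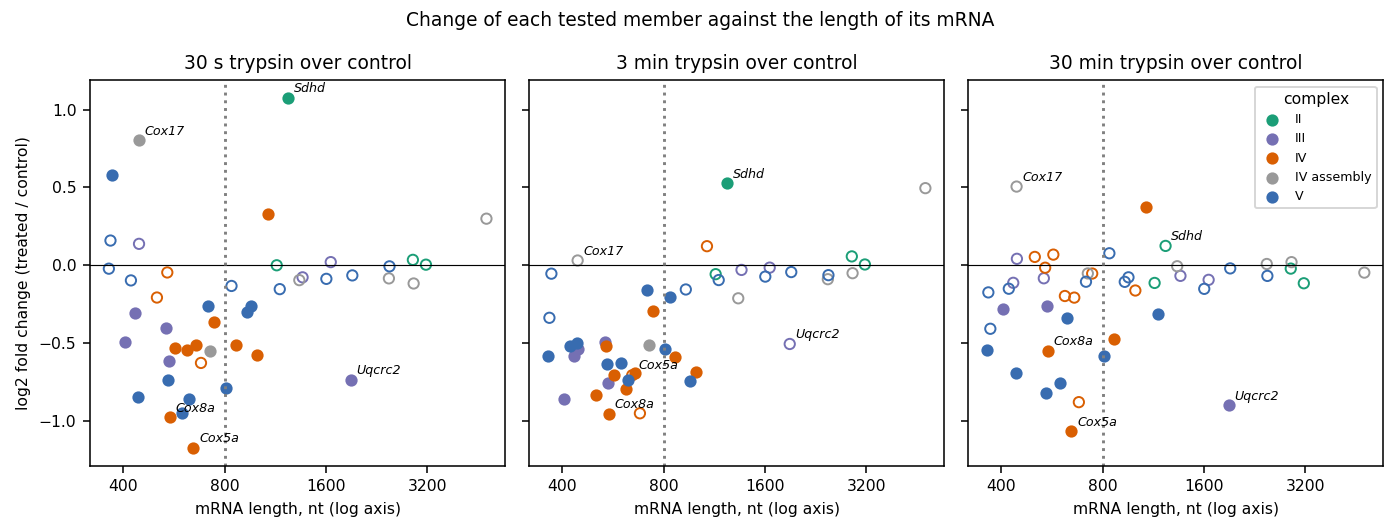
Fitted log2 fold change (y axis) of each tested member against the length of its principal mRNA in nt (log x axis) for the 3 trypsin times over control, coloured by complex, with filled points where the edgeR adjusted p was under 0.05 and a dotted line at 800 nt. At 3 min most members left of the line are filled and below 0 (20 of 25), and the longer Sdhd stays above 0.

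Near-identical copies limit some values. For 14 members at least 10% of the 45-base windows in the last 500 bases also occur in transcripts of other genes, mostly pseudogenes: Uqcrb, Uqcrh, Uqcr11, Cox5b, Cox6a1, Cox6c, Cox7c, Atp5o, Atp5pb, Atp5h, Atp5g1, Atp5g2, Atp5l and Atp5md. The shared part was 75.0% for Atp5g1 and 100% for Atp5g2, so their counts are uncertain, since how reads with several matches were treated is not given in the sources used here. Of these 14 members 13 fell at 3 min, against 12 of the 33 without such a copy, and at 30 s the numbers were 8 and 14. Sdhd, Cox8a, Uqcrq and Cox17 had no shared window in their last 500 bases. The ends of Cox5a, Cox6a2, Cox15, Uqcrb, Uqcrc2, Atp5l and Atp5md overlap a gene on the other strand. The part of copies and overlaps in these results was not tested.

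The rest of the pathway was measured beside these genes. Of 37 tested genes with the symbol of a complex I subunit (Ndufa, Ndufb, Ndufc, Ndufs or Ndufv and a digit), 20 fell and 2 rose at 30 s. At 3 min 26 of them fell, 3 fell at 30 min, 3 fell and 1 rose in low trypsin, and 1 fell with the cold-active protease. They were chosen by symbol alone, which does not settle that each belongs to complex I. Ndufa4 was among those lower at 30 s, 3 min and 30 min. Of 5 tested mitochondrially encoded subunits of complexes III to V, 4 rose at 30 s, 1 at 3 min, 2 at 30 min and 4 in low trypsin, with no call by edgeR or DESeq2 for the cold-active protease, where 4 were higher at an unadjusted edgeR p under 0.05. DESeq2 called 3, 1, 2 and 4 in those trypsin groups. The remaining subunit, mt-Co1, was not called by edgeR against control. Its means were 434 CPM at 30 s, 444 at 3 min, 435 at 30 min and 443 in low trypsin. With the cold-active protease mt-Co1 had 531 CPM, against 484 in control. At an unadjusted edgeR p under 0.05, 1 of the 5 subunits was lower at 30 s and 1 at 30 min. mt-Co2, a catalytic subunit of complex IV, rose by 0.99 ± 0.08 at 30 s and 1.43 ± 0.07 in low trypsin (edgeR adjusted p = 4.83e-15 and 3.61e-21), and mt-Cytb of complex III by 0.17 ± 0.04 and 0.68 ± 0.04. Of 12 citric acid cycle genes Cs, citrate synthase, rose by 0.33 ± 0.06 at 30 s, 0.27 ± 0.06 at 3 min and 0.33 ± 0.06 in low trypsin, and Fh1, fumarase, by 0.31 ± 0.08 at 30 s and 0.31 ± 0.08 in low trypsin. Of 7 tested markers of differentiating muscle, Mylpf, a myosin light chain, fell by 0.70 ± 0.13 at 30 s, 0.82 ± 0.13 at 3 min and 0.54 ± 0.12 in low trypsin, and Acta1, skeletal actin, by 0.48 ± 0.12 at 30 min; their part in the members' changes was not tested.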

How the data were processed

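Gene counts of 18 C2C12 libraries were analysed. Per the submitters' processing notes, the GRCm38 build was used with HISAT2 2.1.0, UMI-tools 1.0.1, Trim Galore 0.6.6, cutadapt 2.6, DESeq2 1.28.1 and featureCounts 2.0.1, with settings not given in the sources used here. Raw counts of reads per gene, as deposited, were used for every result; other tables of the authors were not used.

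All libraries were fitted together in edgeR 4.0.16 (R 4.3.3) with TMM scaling, filterByExpr by group and the quasi-likelihood F test, with no covariate. Genes were called at a Benjamini-Hochberg adjusted p under 0.05 over all 10075 tested genes. The common biological coefficient of variation was 6.08%. CPM values are TMM-scaled, log2 changes carry standard errors, and groups of 3 are given as mean ± SD. An exact permutation test of 3 against 3 could not go below p = 0.1, so none is given. The fitting code was tested on simulated data.

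The members and the gene lists were chosen with earlier results of these data known. Members were named if they were markers of the group, had a paralogue among the members, belonged to complex II, were among the 3 largest called changes of a complex in a direction, or went against most called members; others were added after their values were seen. Alternatives were DESeq2 1.42.0, its size factors, 2 other filters on low counts, only the compared groups, a replicate block, the removal of a length trend (lowess, span 0.3) and leaving out each library. Lengths and gene positions are from GENCODE M21 (GRCm38) and promoters from RefSeq (GRCm38.p6), searched for ETS, YY1, Sp1 and NRF1 motifs; all 25957 genes were in the annotation.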

Additional observations from a re-analysis of the deposited data

Results flagged for a closer look

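These values were picked out because the sign of the fitted change against control differed between trypsin times. The difference between the times was called by edgeR's quasi-likelihood test, and every one rests on 3 libraries a time. In no gene were changes of both signs called against control. The uncalled changes were those of Uqcr11 at 30 s and 30 min, of Cox6a1, Cox6c and Atp5o at 30 min, and of Atp5k at 3 min and 30 min. Uqcr11 was lower at 3 min than at 30 s by a log2 difference of -0.68 (adjusted p = 9.27e-09), from changes of -0.54 at 3 min and 0.14 at 30 s against control. It was higher at 30 min than at 3 min by 0.58 (adjusted p = 2.76e-07), where the change against control was 0.04 at 30 min; with the length trend removed this difference was 0.20 (adjusted p = 0.169). For Cox6a1 the difference was 0.77 at 30 min against 3 min (adjusted p = 4.36e-15) and 0.60 at 30 min against 30 s (adjusted p = 8.94e-12), with changes against control of -0.54 at 30 s, -0.70 at 3 min and 0.07 at 30 min. Cox6c differed by 0.89 at 30 min against 3 min (adjusted p = 1.76e-13), with -0.84 at 3 min and 0.05 at 30 min against control. Atp5o differed by 0.28 in the same comparison (adjusted p = 0.00226), with -0.21 at 3 min and 0.08 at 30 min against control, and by 0.16 with the length trend removed (adjusted p = 0.168). Atp5k, higher than control at 30 s by 0.58, differed by -0.63 at 3 min against 30 s (adjusted p = 0.00163, and 0.0751 with the length trend removed) and by -0.99 at 30 min against 30 s (adjusted p = 3.43e-07). Uqcr11, Cox6a1, Cox6c and Atp5o are among the members with near-identical copies.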

How the results depend on the processing

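With the length trend removed, with or without the replicate block, fewer members were called: 13 at 3 min against control (26 otherwise), 9 at 30 min against 3 min (20), 10 in low trypsin against 3 min (9 higher and 1 lower, in place of 24 higher) and 14 with the cold-active protease against 3 min (22). For the cold-active protease against control, 1 was called with no filter on low counts and 0 by DESeq2, in place of 2. Leaving out each library gave 22 to 25 calls at 30 s, 22 to 24 at 3 min, 9 to 13 at 30 min (9 without 30 min library 2), 4 to 10 in low trypsin (4 without low trypsin library 2) and 0 to 2 with the cold-active protease, all against control. Between treatments the ranges were 9 to 11 for 3 min against 30 s, 17 to 20 for 30 min against 3 min, 10 to 15 for 30 min against 30 s, 19 to 21 for the cold-active protease against 3 min, 21 to 25 for low trypsin against 3 min, and 34 to 36 for any difference among the 6 groups. Other counts of called members stayed within 1.5 times. Directions turned under removal of the length trend, first without and then with the replicate block, for Atp5g3 at 3 min against control (0.0893 and 0.0891), Atp5e at 30 min against 3 min (-0.0306 and -0.0292) and, in low trypsin against 3 min, Atp5e (-0.0788 and -0.0763), Cox4i1 (-0.0713 and -0.0710), Atp5md (-0.0711 and -0.0703), Atp5mpl (-0.000941 and -0.00319), Atp5g3 (-0.0543 and -0.0541) and Atp5g2 (-0.47 and -0.48, called in this direction with adjusted p of 0.0258 and 0.0284), and for Atp5mpl with the cold-active protease against 3 min (-0.134 and -0.136); the cause was not tested. The labels do not say whether lot numbers pair the libraries, and the data gave no sign of it in every pair. Same-numbered libraries of different groups correlated between -0.0605 and 0.0706 in their deviations from group means. For 9 of 18 libraries the mean correlation with the other groups was highest for their own number, where chance gives about 1 in 3. The replicate block gave 26, 25, 14, 11 and 2 called members for 30 s, 3 min, 30 min, low trypsin and the cold-active protease against control. Few counts limit Cox5a, Cox6a2 and Uqcrc2.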
